A study of Homo sapiens with 7 samples.

Results

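Splicing regulators of epithelial cells and 4 genes whose exons they are known to control were followed through 7 RNA-seq libraries of esophageal squamous cell carcinoma (ESCC) lines. The 9 genes were named by a fixed list: the regulators RBM47, ESRP1, ESRP2, RBFOX2 and QKI, and the target genes FGFR2, CD44, CTNND1 and ENAH. All 9 had counts in every library, out of 44382 genes and unassigned transcripts with a count. RBM47 was put on the list because it fell upon SOX2 silencing in these same libraries, so its values in the shSOX2 libraries are a description and carry no test.

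TE5 and KYSE140 are established ESCC lines, in which the transcription factors TP63 and SOX2 were each silenced with an shRNA. TE5 cells carried scramble control shRNA, TP63 shRNA, SOX2 shRNA or CCAT1 shRNA (4 libraries, 1 per condition), CCAT1 being a long non-coding RNA. KYSE140 cells carried scramble, TP63 or SOX2 shRNA (3 libraries, 1 per condition). Per the study's methods the shRNAs were carried by a lentiviral vector. By the sample titles, the SOX2 shRNA numbered 1 was used in both lines and the CCAT1 shRNA numbered 2 in TE5, while both TP63 titles carry the mark ma, which the labels do not explain. No condition has a second culture of the same line. All knockdowns of a line are set against 1 scramble library, which by its run label stood in a different lane (for TE5 on a different flow cell as well). What all knockdowns of a line have in common can therefore not be told apart from the lane, and the comparisons within a line share their control.

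The libraries held between 68532611 and 98036494 estimated counts. TP63 was at 25.6% of its scramble level in TE5 shTP63 and at 26.1% in KYSE140 shTP63, and SOX2 was at 39.5% in TE5 shSOX2 and at 76.6% in KYSE140 shSOX2. The level of CCAT1 was not analysed here. Squamous keratins were present in both lines: KRT5 lay between 200.7 and 701.7 TPM (a level corrected for the length of each transcript and for depth) in TE5 and between 4916 and 12251 TPM in KYSE140, while KRT14 was between 0.20 and 0.55 TPM in the 4 TE5 libraries. Of 6 markers of other cell types, PTPRC, COL3A1, ALB and INS were at or below 1.73 TPM in every library, COL1A1 lay between 12.6 and 44.4 TPM, and PECAM1 was not analysed here.

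Splicing of a pre-mRNA can include or skip an exon, and proteins bound to the neighbouring intron tip that choice. ESRP1 and ESRP2 are RNA-binding proteins made almost only in epithelial cells, where they keep the epithelial forms of FGFR2, CD44, CTNND1 and ENAH. RBM47 is an RNA-binding protein that also favours epithelial exons. RBFOX2 and QKI are widely expressed, bind short words in introns and are known to favour mesenchymal forms of some transcripts. Which form of FGFR2, CD44, CTNND1 or ENAH they favour is not taken as given here.

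Exons and start codons that tell the forms apart are shown first, because the shares given later rest on them. The receptor tyrosine kinase gene FGFR2 uses either of 2 alternative exons for the second part of the third immunoglobulin domain. Exon IIIb (hg19 chr10:123278196-123278343, minus strand, 148 bases) makes the receptor of epithelial cells and exon IIIc that of mesenchymal cells. In the line that follows, capitals mark the exon and small letters 20 intron bases on each side, read from the hg19 genome in the direction of the transcript.
FGFR2 exon IIIb: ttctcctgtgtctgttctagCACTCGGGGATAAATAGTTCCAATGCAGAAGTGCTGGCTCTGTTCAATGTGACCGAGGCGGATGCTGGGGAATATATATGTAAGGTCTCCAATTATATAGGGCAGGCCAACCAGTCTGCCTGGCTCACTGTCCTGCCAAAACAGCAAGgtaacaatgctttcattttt

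ENAH codes for Mena, an actin regulator at the leading edge of cells. Its epithelial form holds a short cassette exon of 63 bases (chr1:225692693-225692755, minus strand), which reads as follows with the same use of capitals.
ENAH cassette exon: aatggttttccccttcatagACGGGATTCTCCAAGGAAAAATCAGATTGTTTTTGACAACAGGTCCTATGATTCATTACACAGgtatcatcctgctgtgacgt

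CD44 codes for the hyaluronan receptor, whose standard form joins its constant exons directly and whose epithelial forms hold variable exons between them. The set v8, v9 and v10 is found in epithelial cells. Exon v8 (chr11:35229652-35229753, plus strand, 102 bases) opens that set and exon v9 (chr11:35231512-35231601, 90 bases) follows it.
CD44 variable exon v8: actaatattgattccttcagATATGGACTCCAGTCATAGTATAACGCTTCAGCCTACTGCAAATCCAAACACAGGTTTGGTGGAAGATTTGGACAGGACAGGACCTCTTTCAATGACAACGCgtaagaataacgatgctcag
CD44 variable exon v9: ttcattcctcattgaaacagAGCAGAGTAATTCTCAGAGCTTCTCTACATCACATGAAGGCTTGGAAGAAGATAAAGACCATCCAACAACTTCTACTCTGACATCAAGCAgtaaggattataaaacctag

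CTNND1 codes for p120 catenin, which holds cadherins at the cell surface. Skipping of early exons moves its translation start: mesenchymal cells use the first start codon and epithelial cells a later one, which gives a shorter protein. The first start codon (chr11:57558951-57558977, plus strand) and the third (chr11:57563085-57563111) are shown with 27 coding bases each, the ATG in capitals.
CTNND1 first start codon: ATGgacgactcagaggtggagtcgacc
CTNND1, the third start codon: ATGcaggagccggggcagattgtggag

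Words bound by 2 of the regulators were looked for within 250 intron bases on each side of these exons and of CD44 exon v10, on the strand of the transcript only. The RBFOX word TGCATG lay 221 bases after CD44 exon v10, and was not in the windows of the other 4 exons. Of 181414 internal exons of protein-coding transcripts, 7.25% had this word in the window before the exon and 7.54% in the window after it. The QKI word ACTAAC was in none of these windows, against 2.96% of all windows before and 2.72% of all windows after an exon. A match is a string of letters, not a bound site, and its absence says nothing of the factor.

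The regulators were expressed in both lines. In the scramble libraries, ESRP1 was at 62.2 TPM in TE5 and 125.4 TPM in KYSE140, ESRP2 at 38.2 and 41.3 TPM, QKI at 56.5 and 70.2 TPM and RBFOX2 at 48.5 and 59.4 TPM. RBM47 was the regulator with the lowest TPM, at 27.5 in TE5 and 9.01 in KYSE140, which is 3.05 times as much in TE5. Among the target genes, FGFR2 stood at 20.1 TPM in TE5 and 156.4 TPM in KYSE140, 7.80 times as much in KYSE140. CD44, CTNND1 and ENAH went the other way, at 375.4, 353.1 and 213.6 TPM in TE5 and 180.8, 131.7 and 74.7 TPM in KYSE140. With 1 scramble library per line these gaps have no replicate error, and they compare the libraries and not the lines.

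**Figure D1:**
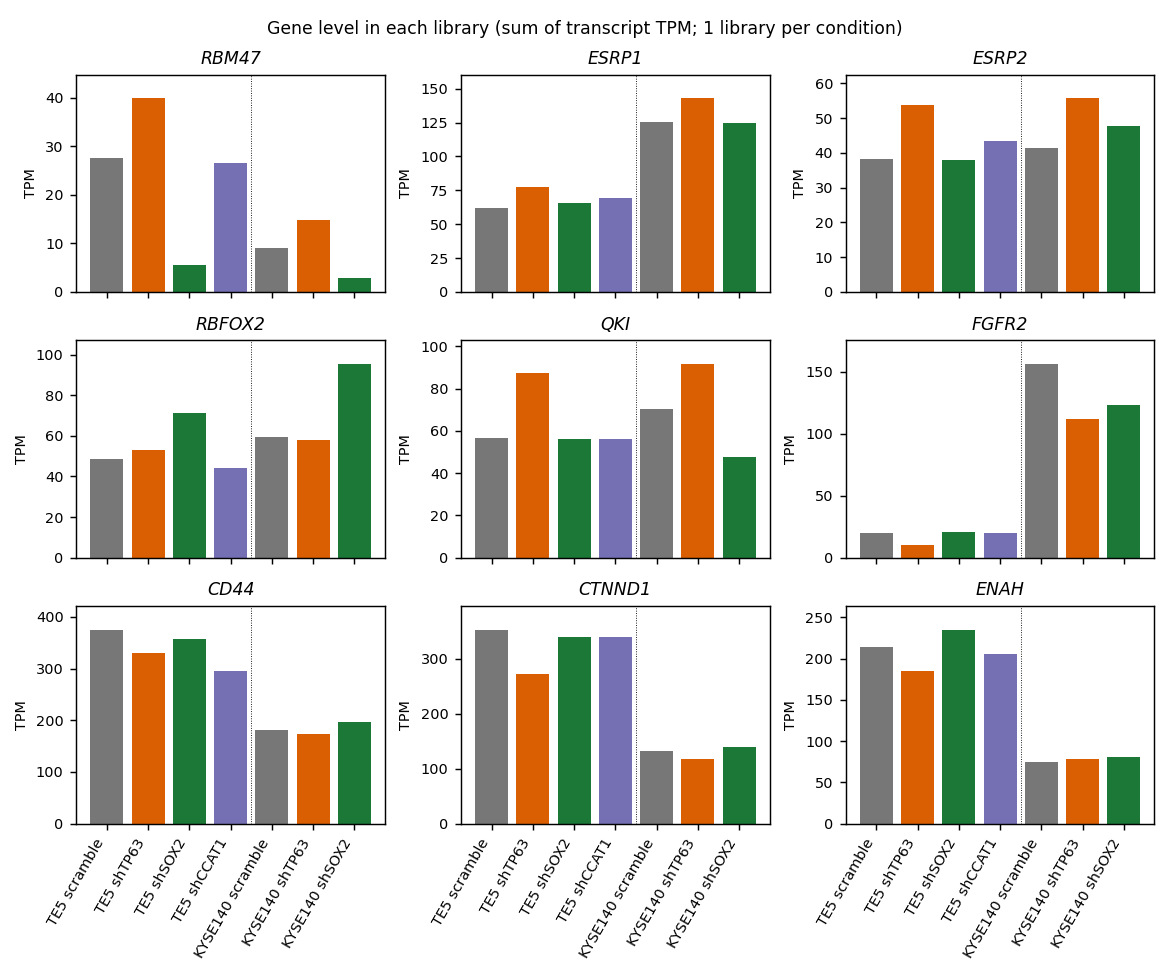
Summed TPM of each gene (vertical axis, starting at 0) in the 7 libraries (horizontal axis, TE5 left and KYSE140 right of the dotted line), 1 bar per library and no replicates. RBM47 is lowest in the shSOX2 bar of each line, at 5.55 and 2.85 TPM, and FGFR2 is lowest in TE5 shTP63, at 10.4 TPM.

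For the changes, counts of all transcripts of a gene were summed and scaled between libraries. The log2 fold change of a knockdown is log2((knockdown + 1)/(scramble + 1)) of normalized counts, and the 95% intervals cover counting error only. The libraries of both lines were also fitted together with edgeR (scramble, shTP63 and shSOX2, 6 libraries, cell line as block), where the lines stand in for replicates. A gene passed at a Benjamini-Hochberg adjusted p under 0.1.

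Upon TP63 silencing, 0 of the 9 genes passed the edgeR quasi-likelihood test, as did 0 of all 26260 genes and transcripts tested (0.0%); 3447 of these had an unadjusted p under 0.05. With DESeq2, an alternative test, 1 of the 9 (FGFR2) passed, against 2029 of 15568 genes (13.0%). Upon SOX2 silencing, 0 of the 8 genes other than RBM47 passed with edgeR, against 14 of 26260 (0.0533%), and 2250 of all had an unadjusted p under 0.05. With DESeq2, 1 of the 8 (RBFOX2) passed, against 756 genes (4.86%). The fit has 2 residual degrees of freedom, so a gene that did not pass is not shown to be unchanged.

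By size, 1 of the 9 genes lay past a log2 fold change of 1 in either direction in TE5 shTP63 (FGFR2), where 21.5% of genes with at least 10 counts and 6.74% of genes with at least 1000 counts did so. In each shSOX2 library only RBM47 did, the gene chosen on that contrast. There 12.8% of genes in TE5 and 14.9% in KYSE140 lay past 1, or 1.56% and 2.27% of genes with at least 1000 counts. None of the 9 did in KYSE140 shTP63 (14.6% of all genes, 1.55% of those with at least 1000 counts) or in TE5 shCCAT1 (19.6% and 0.843%). The genes hold between 486 and 113016 estimated counts in a library, so the shares with at least 1000 counts are the nearer background. The median log2 fold change of the 9 genes lay between -0.13 and 0.16 in the 5 knockdown libraries, that of all genes with at least 10 counts between -0.01 and 0.05 and that of genes with at least 1000 counts between -0.14 and 0.06. Scaling by library size alone in place of TMM (edgeR's scaling factors) moves every log2 fold change up by 0.16 in TE5 shTP63 and in TE5 shCCAT1, so that RBM47, RBFOX2, QKI and CTNND1, which lay below 0 in TE5 shCCAT1, lie above it there.

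**Figure D2:**
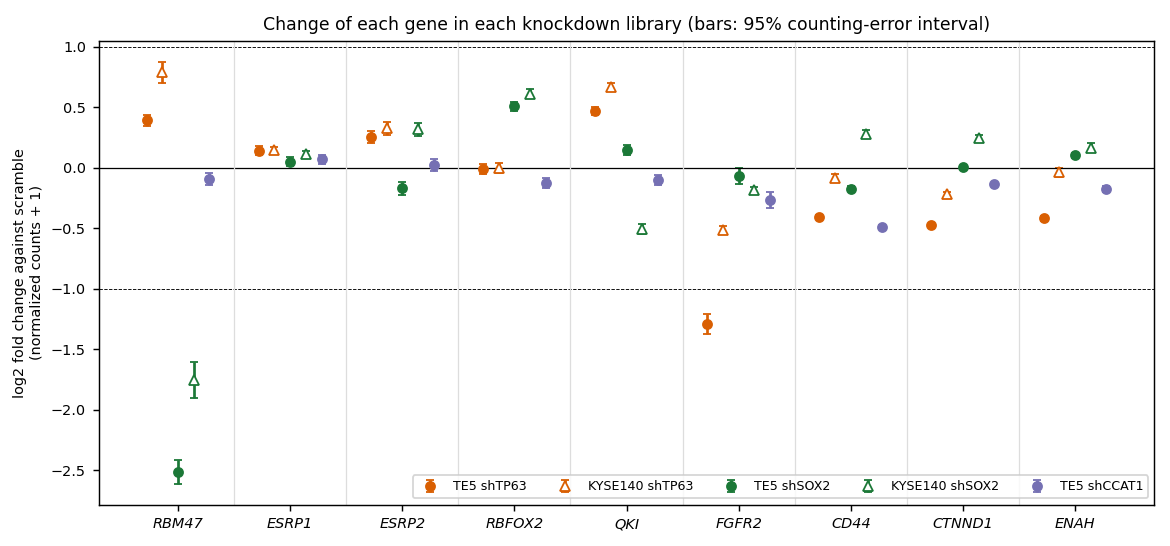
Log2 fold change against the scramble library of the same line (vertical axis, normalized counts plus 1) for each of the 9 genes (horizontal axis) in 5 knockdown libraries; filled circles are TE5, open triangles KYSE140, and bars are 95% intervals of counting error. RBM47 lies at -2.51 and -1.75 in the shSOX2 libraries, FGFR2 at -1.29 in TE5 shTP63, and the dashed lines mark -1 and 1.

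RBM47 (ENSG00000163694, hg19 chromosome 4, 40425284 to 40632892, minus strand) showed the widest range of the regulators, with its low end in the shSOX2 libraries on which it was chosen. It had 5977 normalized counts in TE5 scramble, 7836.8 in TE5 shTP63, 1047 in TE5 shSOX2 and 5590 in TE5 shCCAT1. In KYSE140 it had 2009 in scramble, 3465 in shTP63 and 596 in shSOX2. In both lines the shSOX2 library is the lowest and the shTP63 library the highest. In TE5 shSOX2 it was at 17.5% of scramble (log2 fold change -2.51, interval -2.61 to -2.42) and in KYSE140 shSOX2 at 29.7% (-1.75, -1.90 to -1.60), the change on which it was chosen. Its log2 fold change in the shTP63 libraries was 0.39 (0.34 to 0.44) in TE5 and 0.79 (0.70 to 0.87) in KYSE140. That gave 0.59 in the edgeR fit (standard error 0.20, adjusted p = 0.302), which does not pass.

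The size of the RBM47 change in the shSOX2 libraries, but not its direction, depends on whether 1 further transcript is counted. ENST00000319592 (4934 bases), which the annotation no longer lists and which stands beside the RBM47 transcripts in the tables, was not summed into the gene. It had 234.3 normalized counts in TE5 scramble and 480.9 in TE5 shSOX2, and 632 and 296.7 in KYSE140. With it added, RBM47 stood at -2.02 in TE5 and -1.56 in KYSE140, and the fitted value was -1.82 in place of -2.16. A short word was also looked for in 3′ untranslated regions. The annotated 3′ untranslated region of the main RBM47 transcript holds the word GAAGGAT once (at base 2070 of 2624), a word searched because earlier results of these data had drawn attention to it. It is held by 1049 genes and not by 9867 (9.61%). The word was taken from results of these same libraries, so the medians that follow are a description and carry no test. No other word was searched in these regions, and genes with and without it were not matched for length of the region. Those with the word had a median log2 fold change of -0.13 in TE5 shSOX2 and -0.10 in KYSE140 shSOX2, against -0.02 and 0.06 for genes without it. In TE5 the medians with and without the word were -0.10 and -0.15 in shTP63, and -0.05 and -0.08 in shCCAT1. In KYSE140 shTP63 they were 0.02 and -0.02. Of the other 8 genes, ENAH alone held the word in the annotated region of its most abundant coding transcript, and the regions searched in QKI and CD44 were only 37 and 135 bases long. The search used annotated sequences, not the deposited models. Those models are shorter for RBM47 (4056 bases against 5114) and ENAH (2758 against 13092), and may not hold the word. The part of such words in the level of RBM47 was not tested. Nor was that of SOX2, which was at 39.5% of scramble in TE5 shSOX2 and at 76.6% in KYSE140 shSOX2.

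Within RBM47, ENST00000295971 held 38.5% of the gene's TPM in TE5 scramble and 50.6% in KYSE140 scramble. Its share in the shSOX2 libraries was 30.4% in TE5 and 46.7% in KYSE140. ENST00000381793 held 21.0% in TE5 scramble and 25.4% in TE5 shSOX2, but 23.1% and 6.58% in KYSE140. No RBM47 transcript passed the share test described later. The 5 genes whose pattern was most like that of RBM47 over the 7 libraries, by Pearson r of log2(CPM + 1) after subtraction of each line's scramble value, were SLC2A10, LYRM1, ARHGEF12, CAMKK2 and COQ5, with r from 0.991 to 0.996 among 16382 genes. The scramble libraries are 0 by construction in this measure, which leaves 5 free points. Of the other 8 genes, RBFOX2 had the lowest r with RBM47 (-0.89) and ESRP2 the highest (0.62), as a description without a test.

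ESRP1 (ENSG00000104413, chromosome 8, plus strand) and ESRP2 (ENSG00000103067, chromosome 16, 68262936 to 68272005, minus strand) did not pass in either contrast with edgeR or DESeq2, and all their log2 fold changes lay within 1 of scramble. ESRP1 had 11751 normalized counts in TE5 scramble, 12954 in shTP63, 12153 in shSOX2 and 12324 in shCCAT1, and in KYSE140 25224, 27906 in shTP63 and 27224 in shSOX2. The knockdowns lay between 103.4% and 110.6% of their scramble library by these counts, though by TPM KYSE140 shSOX2 lay just below scramble (124.7 against 125.4). The edgeR fit gave 0.16 for the shTP63 contrast (standard error 0.12, adjusted p = 0.628) and 0.06 for the shSOX2 contrast (standard error 0.12, adjusted p = 0.933).

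ESRP2 had 5758 normalized counts in TE5 scramble, 6868 in shTP63, 5113 in shSOX2 and 5846 in shCCAT1. In KYSE140 it had 6261 in scramble, 7843 in shTP63 and 7790 in shSOX2. The shTP63 library is the highest in each line, at 119.3% and 125.3% of scramble, while the shSOX2 library lies below scramble in TE5 and above it in KYSE140. By TPM the TE5 gap was small (37.9 in shSOX2 against 38.2 in scramble). For ESRP2 the edgeR fit gave 0.31 in the shTP63 contrast (standard error 0.16, adjusted p = 0.482) and 0.06 in the shSOX2 contrast (standard error 0.16, adjusted p = 0.954). The main ESRP1 transcript ENST00000433389 held between 20.2% and 35.7% of the gene's TPM over the 7 libraries, lowest in KYSE140 shSOX2 and highest in TE5 shCCAT1. The main ESRP2 transcript ENST00000565858 held between 25.9% and 31.8%.

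RBFOX2 (ENSG00000100320, chromosome 22, 36134783 to 36424872, minus strand) was highest in the shSOX2 library of each line. It had 9612 normalized counts in TE5 scramble, 9546 in shTP63, 13639 in shSOX2 and 8789 in shCCAT1. In KYSE140 it had 12948 in scramble, 12917 in shTP63 and 19766 in shSOX2. The log2 fold change in the shSOX2 libraries was 0.50 (0.47 to 0.54) in TE5 and 0.61 (0.57 to 0.65) in KYSE140. The edgeR fit gave 0.54 (standard error 0.12, unadjusted p = 0.00476, adjusted p = 0.376), which does not pass, and DESeq2 an adjusted p of 0.00731. Upon TP63 silencing the fitted value was 0.01 (standard error 0.12), and its sign changed with the scaling of the libraries. ENST00000405409 held 39.8% of the RBFOX2 TPM in TE5 scramble and 37.6% in TE5 shSOX2, and 39.7% and 31.0% in KYSE140.

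QKI (ENSG00000112531, chromosome 6, 163835032 to 163999624, plus strand) was highest in the shTP63 library of each line. It had 10109 normalized counts in TE5 scramble, 13977 in shTP63, 11188 in shSOX2 and 9423 in shCCAT1. In KYSE140 it had 14472 in scramble, 22895 in shTP63 and 10179 in shSOX2. The log2 fold change in the shTP63 libraries was 0.47 (0.43 to 0.50) in TE5 and 0.66 (0.63 to 0.69) in KYSE140. The fit gave 0.59 (standard error 0.22, edgeR adjusted p = 0.336), which does not pass; with only transcripts annotated as protein-coding it gave 1.11 (adjusted p = 0.160 with edgeR). That step leaves out ENST00000361758, which is annotated as a target of nonsense-mediated decay and held between 32.3% and 38.9% of the gene's TPM. Among the transcripts it keeps, ENST00000453779 was at 2.44% of the classified QKI TPM in TE5 scramble and 6.23% in shTP63, and at 0.0% and 9.89% in KYSE140.

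The target genes are given by level first and by form after that. FGFR2 (ENSG00000066468, chromosome 10, 123237846 to 123357972, minus strand) was lowest in the shTP63 library of each line. It had 3794 normalized counts in TE5 scramble, 1549 in shTP63, 3612 in shSOX2 and 3152 in shCCAT1. In KYSE140 it had 30300.1 in scramble, 21259 in shTP63 and 26596 in shSOX2. In TE5 shTP63 it was at 40.8% of scramble (log2 fold change -1.29, interval -1.37 to -1.21) and in KYSE140 shTP63 at 70.2% (-0.51, -0.54 to -0.48). The edgeR fit gave -0.86 (standard error 0.22, unadjusted p = 0.00820, adjusted p = 0.230), which does not pass, and DESeq2 gave -0.89 with an adjusted p of 0.0104. Without the KYSE140 shTP63 library, the edgeR value was -1.31 with an adjusted p of 0.0136, in a fit where TE5 alone gives the contrast and 5.71% of all genes passed.

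CD44 (ENSG00000026508, chromosome 11, 35160429 to 35253949, plus strand) had 46359 normalized counts in TE5 scramble, 34929 in shTP63, 41066 in shSOX2 and 32984 in shCCAT1. All 3 TE5 knockdowns lie below their scramble library, at 75.3%, 88.6% and 71.1%, and share its lane difference. In KYSE140 it had 21563 in scramble, 20372 in shTP63 and 26190 in shSOX2. CTNND1 (ENSG00000198561, chromosome 11, 57520715 to 57587018, plus strand) had 101958 normalized counts in TE5 scramble, 73278 in shTP63, 102035 in shSOX2 and 92798 in shCCAT1, and in KYSE140 44709, 38351 in shTP63 and 52967 in shSOX2. The shTP63 library is the lowest of each line, at 71.9% and 85.8% of scramble. Its fitted value upon TP63 silencing was -0.33 (standard error 0.13, adjusted p = 0.362 with edgeR). ENAH (ENSG00000154380, chromosome 1, 225674467 to 225840844, minus strand) stood at 35068 normalized counts in the scramble library of TE5, 26247 in shTP63, 37626 in shSOX2 and 31039 in shCCAT1, and in KYSE140 14528, 14145 in shTP63 and 16269 in shSOX2. The shSOX2 library is the highest of each line, at 107.3% and 112.0% of scramble. None of the 3 passed in either contrast, with edgeR adjusted p values from 0.362 to 0.974 and fitted values from -0.33 to 0.11.

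To compare forms, each coding transcript was put into a class by the exons, start codon or stop codon it holds. A class share is the TPM of the class over the TPM of all classified transcripts of the gene with an annotated coding sequence (in QKI these include ENST00000361758), and its interval was derived from the Wilson 95% interval of the count share. The intervals cover counting error only: how Kallisto divides reads among overlapping transcripts adds an error that 1 library cannot show. In the joint transcript share test of edgeR over both lines, 0 transcripts of the 9 genes passed upon TP63 silencing and 0 upon SOX2 silencing. Of all 87192 transcripts, 191 (0.219%) and 175 (0.201%) passed, and 3266 and 3392 had an unadjusted p under 0.05.

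FGFR2 held both exons in TE5 and mostly exon IIIb in KYSE140. The share of transcripts with the IIIb exon shown earlier was 46.6% (interval 44.8% to 48.5%) in TE5 scramble, 46.1% (43.8% to 48.5%) in shTP63, 58.2% (56.3% to 60.1%) in shSOX2 and 67.3% (65.3% to 69.3%) in shCCAT1. In KYSE140 it was 76.4% (75.7% to 77.2%) in scramble, 76.5% (75.7% to 77.2%) in shTP63 and 83.0% (82.3% to 83.6%) in shSOX2. The shSOX2 libraries lie above scramble in both lines, by 11.5 and 6.53 percentage points, and the TE5 shCCAT1 library by 20.7 points, while the shTP63 libraries differ from scramble by -0.49 and 0.03 points, with intervals that overlap. These gaps depend on the denominator. Over all FGFR2 transcripts, IIIb transcripts held 37.6% of the TPM in TE5 scramble, 36.9% in shTP63, 39.97% in shSOX2 and 34.1% in shCCAT1, and in KYSE140 42.99%, 39.6% in shTP63 and 47.3% in shSOX2. On that scale the shSOX2 libraries remain the highest of their line, by smaller gaps, and the shCCAT1 library is the lowest of TE5 in place of the highest.

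These classes cover 57.3% of the FGFR2 TPM over the libraries. ENST00000369061, which holds neither of the alternative exons, had 15.4% of the gene's TPM in TE5 scramble, 4.53% in shTP63, 20.4% in shSOX2 and 35.9% in shCCAT1. Its KYSE140 values were 35.9% in scramble, 38.4% in shTP63 and 36.8% in shSOX2. The TE5 shCCAT1 library, with the highest IIIb share among classified transcripts, was thus also the TE5 library with the most of this unclassified transcript. Single transcripts moved more than the classes: ENST00000369058, a IIIb transcript, had 0.01% of the classified TPM in TE5 scramble and 15.7% in shSOX2, while ENST00000457416, also IIIb, had 21.0% and 11.4%. ESRP1 and ESRP2, the factors known to favour the exon, lay between 88.8% and 124.4% of scramble in the shSOX2 libraries, and RBM47 was at 17.5% and 29.7% there. Values of the regulators and of the exon are set side by side, and their link was not tested.

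By TPM, CD44 held variable exons in most of its classified transcripts in all 7 libraries. The share with variable exons was 68.5% (interval 68.1% to 69.0%) in TE5 scramble, 64.2% (63.8% to 64.7%) in shTP63, 72.7% (72.3% to 73.2%) in shSOX2 and 64.0% (63.5% to 64.5%) in shCCAT1. In KYSE140 it was 71.0% (70.3% to 71.8%) in scramble, 68.9% (68.2% to 69.5%) in shTP63 and 75.7% (75.1% to 76.2%) in shSOX2. In both lines the order was shSOX2 above scramble above shTP63, with intervals that do not overlap and with gaps of 2.19 to 4.62 points. On estimated counts in place of TPM the shares were lower, 52.3% in TE5 scramble and 54.4% in KYSE140 scramble, in the same order. They were 47.2% in TE5 shTP63 and 47.0% in TE5 shCCAT1, where the standard class was the larger on counts. The main deposited model with variable exons is 2369 bases long and the main standard one 4589, a difference for which TPM corrects and counts do not. Over all CD44 transcripts the order was kept, but some gaps nearly closed: 43.3% in TE5 scramble, 38.3% in shTP63 and 43.7% in shSOX2, and in KYSE140 37.5%, 37.2% and 42.2%.

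Most of that class was ENST00000415148, which holds 8 of the variable exons and made up 46.1% of the classified TPM in TE5 scramble and 60.5% in KYSE140 scramble. ENST00000433892, with the 3 exons v8 to v10, made up 21.0% in TE5 scramble and 8.25% in KYSE140 scramble. The standard form was nearly all ENST00000263398, with 30.2% and 28.9%. The classes cover 58.5% of the CD44 TPM. The main transcript outside them, ENST00000525469, is 705 bases long and held between 9.29% and 13.2% of the gene's TPM. The deposited models differ in length from the annotation for 1 of 4 standard transcripts and 2 of 5 with variable exons.

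CTNND1 was read mainly from transcripts that begin at the third start codon, the epithelial choice. Their share was 77.3% (interval 77.0% to 77.6%) in TE5 scramble, 83.5% (83.3% to 83.8%) in shTP63, 80.1% (79.8% to 80.4%) in shSOX2 and 79.1% (78.8% to 79.4%) in shCCAT1. In KYSE140 it was 89.4% (89.0% to 89.8%) in scramble, 87.1% (86.7% to 87.5%) in shTP63 and 88.0% (87.6% to 88.3%) in shSOX2. All TE5 knockdowns lie above their scramble library and both KYSE140 knockdowns below theirs. Transcripts from the first start codon, the mesenchymal choice, held 13.7% in TE5 scramble and 10.1% in KYSE140 scramble, and between 10.9% and 13.0% in the 5 knockdowns. In TE5 part of the gap came from 1 short model, ENST00000530068 (579 bases, second start codon), at 8.05% in scramble and 2.82% in shTP63. On estimated counts the TE5 shTP63 library lay 1.86 points above scramble in place of 6.24. The CTNND1 classes cover 98.3% of the gene's TPM.

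ENAH rests on 2 coding transcripts that span the cassette exon, 1 with it (ENST00000366844) and 1 without (ENST00000366843). The share with the exon was 11.3% (interval 10.96% to 11.6%) in TE5 scramble, 14.02% (13.6% to 14.4%) in shTP63, 12.9% (12.6% to 13.3%) in shSOX2 and 13.5% (13.1% to 13.8%) in shCCAT1. In KYSE140 it was 13.1% (12.6% to 13.8%) in scramble, 16.8% (16.1% to 17.4%) in shTP63 and 10.6% (10.2% to 11.1%) in shSOX2. The shTP63 library is the highest of its line in both, and the shSOX2 library lies above scramble in TE5 and below it in KYSE140. The level of this share is not a level of exon use. The deposited model with the exon is 13168 bases long and the one without it 2758 (13092 in the annotation), so of this pair only the form with the exon carries the long 3′ region. On estimated counts the share was 39.0% in TE5 scramble and 43.2% in KYSE140 scramble. With transcripts not annotated as coding included, it was 51.9% in both. Over all ENAH transcripts the exon-holding one was at 4.22% in TE5 scramble, 4.32% in shTP63 and 4.16% in shSOX2, and at 5.25%, 5.41% and 4.18% in KYSE140, so that TE5 shSOX2 lay just below scramble. The 2 classes cover 33.8% of the ENAH TPM.

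QKI forms differ in their last coding exon, which decides whether the protein stays in the nucleus. Transcripts that end at the most distal stop held 52.8% (interval 51.4% to 54.2%) of the classified TPM in TE5 scramble, 51.0% (49.9% to 52.0%) in shTP63, 44.8% (43.3% to 46.3%) in shSOX2 and 49.6% (48.2% to 50.9%) in shCCAT1. In KYSE140 they held 48.6% (47.2% to 50.1%) in scramble, 39.1% (38.1% to 40.1%) in shTP63 and 52.0% (50.4% to 53.5%) in shSOX2. The lowest library was shSOX2 in TE5 and shTP63 in KYSE140, so the 2 lines did not share an order. This class is led by short models of 1063 and 1106 bases, and on estimated counts it held only 15.5% in TE5 scramble and 12.8% in KYSE140 scramble.

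**Figure D3:**
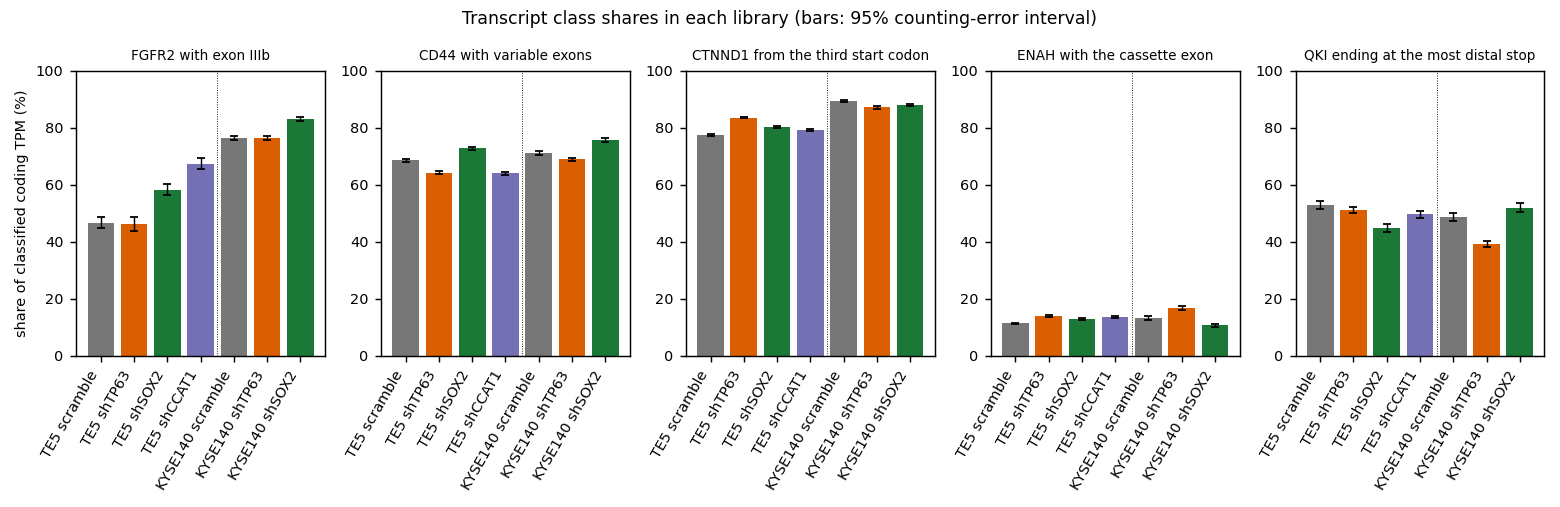
Share of a transcript class in the classified coding TPM of its gene (vertical axis, percent from 0 to 100) in each of the 7 libraries (horizontal axis), 1 panel per class; bars on the columns are 95% intervals of counting error. The FGFR2 IIIb share runs from 46.1% in TE5 shTP63 to 83.0% in KYSE140 shSOX2, and the CD44 share with variable exons is highest in the shSOX2 library of each line.

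Other regulators of splicing were taken as a list of 34 genes, of which 32 were tested. With edgeR, 0 of the 32 passed in either contrast. With DESeq2, 4 fell and 0 rose upon TP63 silencing, and 2 fell and 0 rose upon SOX2 silencing. These shares, 12.5% and 6.25% of the 32, are near the 13.0% and 4.86% of all genes that passed with DESeq2, so the genes named next are not a result about splicing regulators as a group. DESeq2 gave no adjusted p for RBM24, RBFOX1, RBFOX3 and NOVA1, so the shares of the list are slightly understated. The median fitted log2 fold change of the 32 was -0.14 in the shTP63 contrast and -0.11 in the shSOX2 contrast, against 0.04 and 0.005 for all genes tested. ELAVL1, which codes for the RNA-binding protein HuR, was the only one past the DESeq2 threshold in both contrasts. It was at 97.4 TPM in TE5 scramble, 52.1 in shTP63, 48.7 in shSOX2 and 82.9 in shCCAT1, and in KYSE140 at 88.9, 57.7 in shTP63 and 60.2 in shSOX2. All 5 knockdowns lie below their scramble library, and so move with the lane as well. The DESeq2 adjusted p was 0.000416 and 0.00177, and the edgeR adjusted p 0.164 and 0.306.

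The DESeq2 calls upon TP63 silencing also took in HNRNPF, which binds runs of G, and HNRNPK, which binds runs of C. HNRNPF was at 300.8 TPM in TE5 scramble and 148.8 in shTP63, and at 176.1 and 128.6 in KYSE140 (edgeR adjusted p = 0.199, DESeq2 adjusted p = 0.00344). Upon SOX2 silencing they took in HNRNPM, which is known to act against ESRP1 at several exons. HNRNPM was at 245.4 TPM in TE5 scramble and 112.2 in shSOX2, and at 233.0 and 164.9 in KYSE140 (edgeR adjusted p = 0.418, DESeq2 adjusted p = 0.0393). It was at 188.8 TPM in TE5 shTP63, 204.1 in TE5 shCCAT1 and 230.1 in KYSE140 shTP63. For HNRNPM and HNRNPK every knockdown library lay below its scramble library, so both move with the lane as well. KHDRBS3 was lower in both shSOX2 libraries as well, at 0.79 against 1.21 TPM in TE5 and 4.12 against 10.8 TPM in KYSE140, without passing either test (edgeR adjusted p = 0.560, DESeq2 adjusted p = 0.296). RBM24 lay at or below 0.33 TPM in every library.

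**Figure D4:**
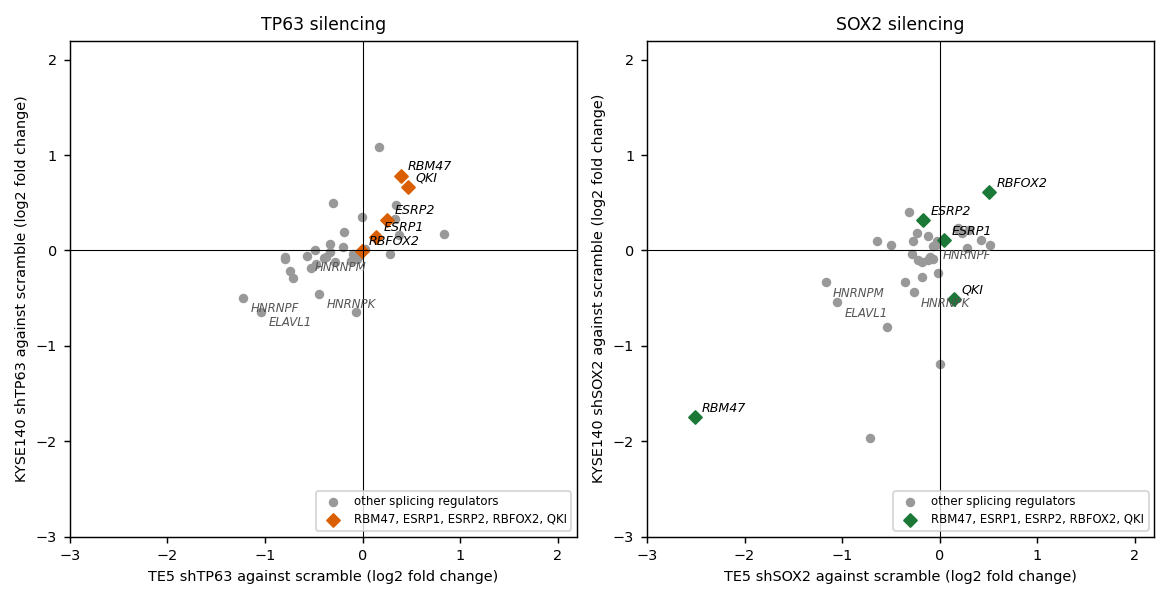
Log2 fold change against scramble in TE5 (horizontal axis) and KYSE140 (vertical axis) upon TP63 silencing (left) and SOX2 silencing (right); grey points are 32 other splicing regulators and coloured diamonds the 5 regulators described. RBM47 lies at -2.51 and -1.75 upon SOX2 silencing, the contrast on which it was chosen, so its place away from the rest is no finding. RBFOX2 lies at 0.50 and 0.61 there.

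Of 20 other genes with exons under the same regulators, 0 passed with edgeR in either contrast. With DESeq2, 5 fell and 0 rose upon TP63 silencing, and 1 rose upon SOX2 silencing, which is 25.0% and 5% of the list against 13.0% and 4.86% of all genes. Their median was -0.13 and 0.06. ITGA6, the integrin chain that binds laminin, was on both sides: 104.0 TPM in TE5 scramble, 65.2 in shTP63 and 127.2 in shSOX2, and 70.8, 40.5 and 112.7 in KYSE140 (edgeR adjusted p = 0.185 and 0.475, DESeq2 adjusted p = 0.00127 and 0.0968). LSR, a protein of tricellular contacts, was at 181.5 and 127.4 TPM in TE5 and 244.5 and 140.5 TPM in KYSE140, scramble before shTP63 (edgeR adjusted p = 0.159, DESeq2 adjusted p = 2.53e-06).

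Genes of epithelial and mesenchymal state were counted alongside. Of all genes, 0.0% passed with edgeR and 13.0% with DESeq2 upon TP63 silencing, and 0.0533% and 4.86% upon SOX2 silencing. Of 14 epithelial genes, 0 passed with edgeR in either contrast. With DESeq2, 3 (GRHL1, CLDN4 and ELF3, 21.4% of the list) rose and 0 fell upon TP63 silencing, and 0 passed upon SOX2 silencing. CDH1, which codes for E-cadherin, was between 135.1 and 260.7 TPM in all 7 libraries, and at 232.0 and 239.9 TPM in the shSOX2 libraries. Of 9 mesenchymal genes, 0 passed with edgeR. With DESeq2, 1 (FN1) rose and 2 (VIM and SNAI2) fell upon TP63 silencing, and 0 passed upon SOX2 silencing. By the fitted log2 fold change upon TP63 silencing, 6 of the 9 lay above 0 and 3 below. FN1 was at 4.79 TPM in TE5 scramble and 14.01 in TE5 shTP63, and at 0.874 and 1.16 TPM in KYSE140 (DESeq2 adjusted p = 0.01254). ZEB1, a repressor of ESRP1 and CDH1, was at or below 0.64 TPM in every library. VIM, which codes for vimentin, was at 86.7 TPM in TE5 scramble, 54.7 in shTP63 and 76.0 in shSOX2, and at 167.2, 126.0 and 130.7 TPM in KYSE140 (DESeq2 adjusted p = 0.00692 upon TP63 silencing and 0.729 upon SOX2 silencing). With 64.3 TPM in TE5 shCCAT1, VIM lay below scramble in every knockdown library, and so moves with the lane as well. SNAI2, a repressor of epithelial genes, was at 68.01, 42.5 and 71.3 TPM in TE5 and at 62.6, 40.2 and 65.9 TPM in KYSE140 (DESeq2 adjusted p = 1.65e-05 and 0.793). The medians of these lists were 0.23 and 0.46 in the shTP63 contrast and 0.15 and -0.20 in the shSOX2 contrast. Of 8 squamous markers, 2 fell upon TP63 silencing with DESeq2 (TP63 itself and PKP1) and 1 fell upon SOX2 silencing (SOX2 itself), and 0 passed with edgeR. The DESeq2 calls are 25.0% and 12.5% of this list, each taking in the silenced gene. Of the 4 markers of other cell types tested with edgeR, 0 passed. DESeq2 gave an adjusted p for COL1A1 and COL3A1 alone, and neither passed.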

How the data were processed

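RNA-Seq of 7 libraries was analysed. Per the labels and methods, the authors pseudoaligned paired reads of 100 bases with Kallisto to the hg19 Ensembl (V82) transcriptome. They deposited 196354 transcripts per library. The Kallisto version is not given in the sources used here. The authors' estimated counts are Kallisto's division of reads among transcripts, not scaled between libraries. The deposited TPM values are scaled within a library by Kallisto.

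Transcripts were summed to genes with GENCODE 44 mapped to hg19 (182863 transcripts, 93.58% of counts) or, where retired, by standing between transcripts of the same gene (7011; 3.72%). A further 6480 (2.7%) stayed single. Rounded counts were fitted with edgeR 4.0.16 (TMM, quasi-likelihood, filterByExpr, 6 libraries, cell line as block; R 4.3.3), DESeq2 1.42.0 being an alternative, and transcript shares with edgeR's diffSpliceDGE. Tested on simulated counts, the gene fit kept its share of false calls under the threshold, while the share test exceeded it. The simulated spread was smaller than that fitted to the data (common dispersion 0.064 for genes and 0.392 for transcripts), and both lines were made to respond alike. The simulation therefore does not show the share of false calls in these data. P-values measure the spread between 2 lines, not replicates. Fold changes of single pairs of libraries took a pseudocount of 1, required 10 counts in either library and carry no p-value. All 5 knockdown libraries were so compared.

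Named were all 9 genes, their transcripts with a mean TPM share of at least 10%, the classes, and listed genes with the largest change in 1 direction in both lines. Others named from the lists (CDH1, ZEB1, VIM, SNAI2, FN1, HNRNPM, GRHL1, CLDN4, ELF3 and those without a DESeq2 adjusted p) and single class transcripts were chosen after their values were seen. Members and lists were chosen with earlier results of these data known. Python 3.11.15, numpy 2.4.6, pandas 2.3.3 and matplotlib 3.10.9 were used. The sequence of 1 exon is not reported here.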

Additional observations from a re-analysis of the deposited data

Results flagged for a closer look

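The lines moved in opposite directions upon SOX2 silencing for 3 genes, with counting intervals on either side of 0. The log2 fold change was -0.17 in TE5 and 0.32 in KYSE140 for ESRP2, 0.15 and -0.51 for QKI, and -0.17 and 0.28 for CD44. On TPM the TE5 value of QKI was -0.0097, so its opposite direction is lost on that scale. ESRP2 was at 37.9 TPM in TE5 shSOX2 and 38.2 in TE5 scramble, so its fall in TE5 is nearly lost there too. The share of QKI transcripts ending at the most distal stop differed from scramble by -8.04 percentage points in TE5 shSOX2 and by 3.32 in KYSE140 shSOX2. Upon TP63 silencing, the share of CTNND1 transcripts that begin at the third start codon differed from scramble by 6.24 points in TE5 and by -2.28 in KYSE140. With 1 library per condition in each line, the difference between the lines was not tested.

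The unassigned transcript ENST00000319592 beside RBM47 had 480.9 normalized counts in TE5 shSOX2, above its 234.3 in TE5 scramble, while RBM47 without it was at 17.5% of scramble. It is outside the gene sums of the report.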

How the results depend on the processing

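Of 891 alternative values over 172 results, 514 kept their size or side of the threshold, 356 moved, 17 changed sign and 4 newly passed. Over all genes, edgeR passed 0 and DESeq2 2029 upon TP63 silencing, and 14 and 756 upon SOX2 silencing. With edgeR the counts became 669 and 184 without a filter, 726 and 90 with at least 50 counts in every library, 220 and 34 without unannotated transcripts, 6 and 24 with protein-coding transcripts alone, 5 and 29 with the shCCAT1 library added, 0 and 0 without the block, and 0 to 1623 and 0 to 466 with a library left out. Of the 9 genes, 1 (FGFR2) passed upon TP63 silencing with DESeq2 and 1 without a filter on low counts, and 0 to 1 with each library left out in turn, FGFR2 passing without KYSE140 shTP63. Of the 8 other than RBM47, 1 (RBFOX2) passed upon SOX2 silencing with DESeq2. With each library left out in turn, 0 to 1 transcripts of these genes passed the share test upon TP63 silencing and 0 to 4 upon SOX2 silencing, where 3 of 140 passed without TE5 scramble (0.548% of all transcripts) and 4 of 139 without TE5 shSOX2 (0.637% of all); this test made too many false calls on simulated counts. Leaving out a library can leave a condition with 1 sample, whose spread is then assumed to be that of the others. The 17 sign changes were of fitted log2 fold changes that had not passed; with other scalings, some fold changes in single libraries changed sign as well. RBFOX2 upon TP63 silencing was at -0.016 with DESeq2 and with its size factors, at -0.00049 with the shCCAT1 library added, and between -0.046 and 0.031 with a library left out. Upon SOX2 silencing, protein-coding transcripts alone gave -0.0081 for ESRP2 and 0.0091 for QKI. With a library left out, ESRP2 ran from -0.15 to 0.28, QKI from -0.58 to 0.20, FGFR2 from -0.41 to 0.11, CD44 from -0.15 to 0.20 and CTNND1 from -0.0064 to 0.20. Without the cell line as replicate block, CD44 upon SOX2 silencing was at -0.026 and 0 of the genes passed in either contrast. RBM47 upon SOX2 silencing stayed between -1.82 and -2.42. Of 45 fold changes in single libraries, 35 moved beyond their counting interval with library size alone, 14 with DESeq2 size factors, 39 on TPM, 15 with protein-coding transcripts alone and 0 with a pseudocount of 10. In TE5 shSOX2, QKI (-0.0097), FGFR2 (0.036) and CTNND1 (-0.056) changed sign on TPM. Of 105 class shares, 90 moved on estimated counts, 77 over all transcripts of the gene and 39 with rare transcripts left out. The cause was not tested.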
